A study of Homo sapiens with 12 samples.

Results

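The genes described here are 9 genes of vitamin A (retinoid) handling, chosen by their names in the count table from its 58735 genes: CRABP2, STRA6, ALDH1A3, DHRS9, DHRS3, CYP26B1, RARG, RARA and RXRA. Bulk RNA-seq gave their transcript levels in 12 libraries of N/TERT-2G cells, an immortalised line of human skin keratinocytes. The cells received siRNA against ATF3 (a transcription factor of the ATF/CREB family), APOE (an apolipoprotein) or CXCL14 (a chemokine made by epithelia), or a negative control siRNA, with 3 libraries in each of these 4 groups. All groups, the control included, received 100 pmol of siRNA with 5 µl of a Lipofectamine reagent per well and fresh medium after 6 h, so each difference is between transfected cells of a single cell line. The labels name no retinoid among the treatments and give no time from transfection to RNA extraction. They do not say whether replicates were separate cultures, so p-values measure only the spread between these libraries, which may be technical. The work was done in a study of vulvar lichen sclerosus, a chronic skin disease.

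Keratinocytes take up vitamin A as retinol, oxidise it to retinal and then to retinoic acid, and break retinoic acid down again with enzymes of the CYP26 family. Retinoic acid is carried to the nucleus by CRABP2, where it binds receptors of the RAR family that act on DNA in pairs with RXR receptors. In epidermis, retinoic acid is known to hold back terminal differentiation and cornification, and RARG is known as the main RAR there.

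Total counts per library ran from 16225691 to 22246755, and the floor of 3 counts that a gene at 0 may still hide corresponded to 0.136 to 0.191 CPM (counts scaled to a common library size), for counting error only. All 10 keratinocyte markers were measured, with summed levels of 30960 to 33480 CPM with ATF3 siRNA, 38890 to 41670 CPM with APOE siRNA, 20770 to 21630 CPM with CXCL14 siRNA and 29010 to 32120 CPM with control siRNA. Against the control, 2 of them were called higher and 2 lower with ATF3 siRNA, 7 higher and 1 lower with APOE siRNA, and 1 higher and 8 lower with CXCL14 siRNA. The share called over all tested genes was 20.4%, 44.8% and 55.8%. Of 7 fibroblast markers 2 passed the filter. That list summed to 32.6 to 40.8, 74.3 to 87.9, 14.6 to 17.8 and 25.4 to 34.2 CPM in the same order of groups, nearly all of it COL1A1. COL1A1 was called higher with APOE siRNA and lower with CXCL14 siRNA, and the other tested marker, DCN, was called higher with both, from 28 and 37 counts against 5 with control siRNA. In that order COL1A2 had 0, 1, 8 and 0 counts and COL3A1 had 0, 0, 7 and 0 counts. Melanocyte markers summed to 3.26 to 3.87, 3.07 to 3.85, 6.601 to 6.749 and 3.26 to 4.195 CPM in the same order of groups, with TYR at 0 in all 12 libraries. Of 3 tested melanocyte markers, 1 was called lower with APOE siRNA and 1 higher with CXCL14 siRNA. Immune markers summed to 2.67 to 5.08, 5.75 to 6.25, 0.981 to 1.42 and 2.12 to 3.35 CPM, with PTPRC and CD3E at 0 in all 12, and the tested marker, CD14, was called higher with APOE siRNA and lower with CXCL14 siRNA. Endothelial markers summed to 0.665 to 0.731, 0.580 to 0.986, 1.37 to 1.58 and 0.304 to 0.6197 CPM, and KDR was called higher with CXCL14 siRNA. The part of these shifts in the results below was not tested. Each target fell with its own siRNA. ATF3 changed by -1.81 ± 0.08 on the log2 scale with ATF3 siRNA (edgeR adjusted p = 1.37e-09), and APOE averaged 0.190 CPM with APOE siRNA and 3.18 CPM with control siRNA (edgeR adjusted p = 1.67e-07). CXCL14 had 2 counts in all with CXCL14 siRNA and 24 with control siRNA (edgeR adjusted p = 0.0143), a call lost without CXCL14 siRNA library 3, without control library 3 and with limma-voom. Some targets also moved under an siRNA aimed at a different gene. CXCL14 summed to 454 counts in the APOE siRNA group, a change of 4.11 ± 0.48 (edgeR adjusted p = 3.48e-06). In the CXCL14 siRNA group, the changes were 0.70 ± 0.07 for ATF3 (4.96e-07) and 0.89 ± 0.20 for APOE (0.00144). The ATF3 siRNA group showed no such call, nor did ATF3 with APOE siRNA. The part of these moves in the results was not tested.

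The carrier CRABP2 was higher with each of the 3 targeting siRNAs, while the enzymes and receptors went different ways in each group. The acid-forming enzyme ALDH1A3 was higher with ATF3 siRNA and lower with the other two, the retinal reductase DHRS3 and the receptor RARA were higher with APOE siRNA, and the acid-degrading enzyme CYP26B1 was lower with ATF3 siRNA and CXCL14 siRNA. RARG was called higher with ATF3 siRNA and APOE siRNA and lower with CXCL14 siRNA. Of these calls, those of ALDH1A3 and CYP26B1 with ATF3 siRNA and of RARG with APOE siRNA and CXCL14 siRNA were each lost under 2 to 5 of 14 alternatives. A change below is the edgeR log2 fold change ± SE of the named siRNA over control siRNA, except where a different pair is given. Levels are TMM-scaled CPM, with mean ± SD over the 3 libraries of a group. A gene counts as called, risen or fallen at an adjusted p under 0.05, with adjustment over the 14920 genes tested. Of the 9 genes 8 passed the filter on low counts. STRA6 did not and is described by its counts.

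With ATF3 siRNA, 3 of the 8 tested retinoid genes were called higher and 1 lower, where 20.4% of all tested genes were called, 11.2% higher and 9.14% lower. The median change of the 8 genes was 0.20, against 0.0032 over all tested genes. The number of all genes called, 3041, fell to 1916 of 15273 tested without control library 1, and with library size alone in place of TMM 44.0% of calls were higher, against 55.2% with TMM. With APOE siRNA 4 of the 8 were called higher and 1 lower, where 44.8% of all tested genes were called, 22.3% higher and 22.5% lower, and the median change was 0.20 against 0.012 over all tested genes. With CXCL14 siRNA 2 were called higher and 3 lower, where 55.8% of all tested genes were called, 27.4% higher and 28.4% lower, and the median change was -0.10 against 0.013. The libraries did not overlap with those of the control in 6 of the 9 genes with ATF3 siRNA, in 5 with APOE siRNA and in 5 with CXCL14 siRNA, where the share over all tested genes was 35.2%, 54.4% and 62.1%. The counts with ATF3 siRNA and CXCL14 siRNA include STRA6, which is not among the tested genes of that share. These 3 comparisons share their control libraries, so their counts are not independent of each other. Nothing particular to these genes is read from the counts.

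**Figure D1:**
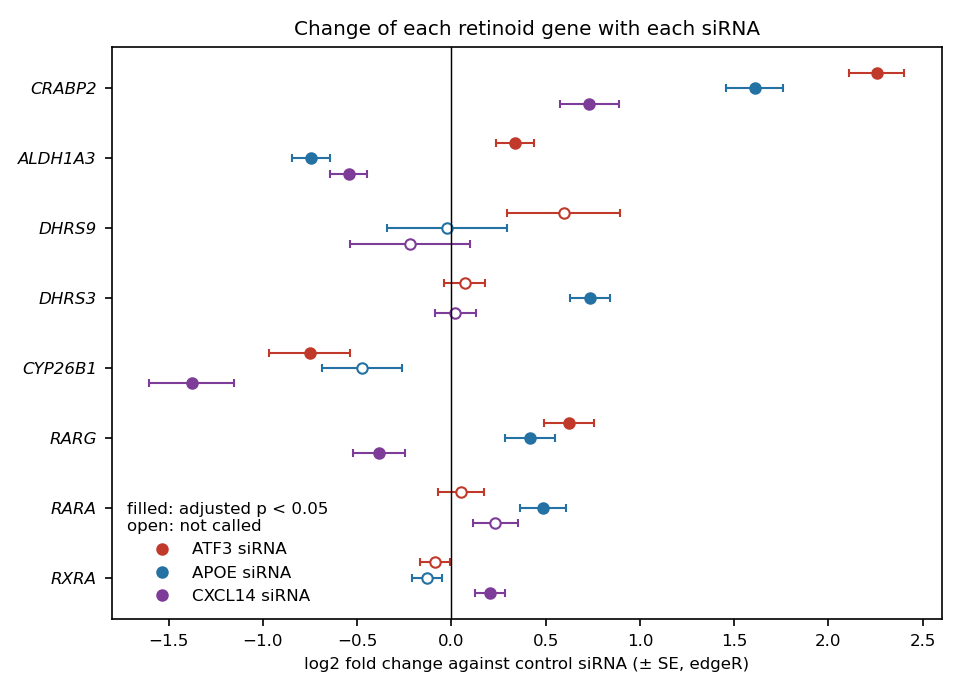
Change of each of the 8 tested retinoid genes (rows) with ATF3 siRNA, APOE siRNA and CXCL14 siRNA, as the log2 fold change against control siRNA on the x axis; bars are ± 1 SE from edgeR, filled points have an adjusted p under 0.05 and open points do not. CRABP2 lies to the right of 0 with each siRNA, at 2.26, 1.61 and 0.73, and CYP26B1 to the left, at -0.75, -0.47 (open) and -1.38.

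CRABP2, the carrier that hands retinoic acid to the RAR receptors in the nucleus, showed the largest change of the 8 tested genes with ATF3 siRNA and with APOE siRNA. It stood at 14.7, 18.05 and 19.2 CPM with ATF3 siRNA, 11.2, 10.1 and 11.7 CPM with APOE siRNA, 6.54, 5.50 and 5.92 CPM with CXCL14 siRNA and 3.08, 3.47 and 4.28 CPM with control siRNA, from 957, 581, 356 and 177 counts. No library of any group overlapped with those of another group, and the groups were ordered ATF3 siRNA, APOE siRNA, CXCL14 siRNA, control siRNA. Against the control, CRABP2 was 4.78-fold higher with ATF3 siRNA (2.26 ± 0.15, edgeR adjusted p = 4.31e-08). It was 3.05-fold higher with APOE siRNA (1.61 ± 0.15, edgeR adjusted p = 3.26e-07) and 1.66-fold higher with CXCL14 siRNA (0.73 ± 0.16, edgeR adjusted p = 0.000828). The siRNA groups also differed from each other: the level was higher with ATF3 siRNA than with APOE siRNA (0.65 ± 0.13, edgeR adjusted p = 7e-04) and than with CXCL14 siRNA (1.53 ± 0.13, edgeR adjusted p = 7.64e-08), and higher with APOE siRNA than with CXCL14 siRNA (0.88 ± 0.14, edgeR adjusted p = 4.36e-05). Each of these 6 calls held under all 14 alternatives. In bulk samples, more cells with the transcript and more of it per cell cannot be told apart.

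The CRABP2 gene (ENSG00000143320) lies on chromosome 1 at 156699606 to 156705816, minus strand (hg38). The promoter sequences below are from RefSeq (GRCh38.p14), each running from 250 bases before to 50 bases after an annotated start, 5′ to 3′ on the gene's strand; 21 such windows were found for the 9 genes, and all 9 matched. CRABP2 is shown because it was higher with each siRNA. DHRS3 is shown because its window holds the only DR1 element among the 21, a direct repeat of receptor half-sites with a spacer of 1 base. DHRS9 is shown for a match to the AP-1 site TGANTCA, a kind of site bound by AP-1 dimers, of which ATF3 can be a part. Capitals mark these matches.
CRABP2, chr1:156705735-156706034, minus strand: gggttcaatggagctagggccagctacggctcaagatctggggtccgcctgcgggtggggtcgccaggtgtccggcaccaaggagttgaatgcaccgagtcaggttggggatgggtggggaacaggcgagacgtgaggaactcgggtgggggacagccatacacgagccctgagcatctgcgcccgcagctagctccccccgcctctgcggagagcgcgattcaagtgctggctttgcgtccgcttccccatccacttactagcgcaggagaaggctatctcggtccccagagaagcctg
DHRS3, chr1:12616740-12617039, minus strand, DR1 element: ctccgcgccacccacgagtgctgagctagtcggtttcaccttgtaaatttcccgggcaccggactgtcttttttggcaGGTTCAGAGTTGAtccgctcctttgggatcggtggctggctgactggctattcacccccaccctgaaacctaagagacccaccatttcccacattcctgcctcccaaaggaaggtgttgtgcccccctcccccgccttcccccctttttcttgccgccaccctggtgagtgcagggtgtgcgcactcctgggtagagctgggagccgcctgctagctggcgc
DHRS9, chr2:169069313-169069612, plus strand, AP-1 site: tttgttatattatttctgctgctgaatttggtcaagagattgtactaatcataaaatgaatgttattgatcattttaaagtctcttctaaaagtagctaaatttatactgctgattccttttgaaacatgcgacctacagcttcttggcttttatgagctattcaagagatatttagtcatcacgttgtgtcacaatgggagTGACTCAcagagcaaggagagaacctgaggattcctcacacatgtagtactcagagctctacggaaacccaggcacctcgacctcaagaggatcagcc
Both strands of each window were searched for 7 motifs, and the CRABP2 window held none of them. The DR5 and DR2 elements, repeats that RAR and RXR pairs are known to bind, were in 0 of the 21 windows, and are in 0.34% and 0.24% of all 35116 RefSeq windows of the same length. The DR1 element was in 1 of 21, in DHRS3, and is in 0.38% of all windows. The half-site AGGTCA, which can overlap with such repeats, was in 4 of 21 (DHRS3, RARA and STRA6) and is in 13.83% of all, and AGTTCA was in 1 (DHRS9) and is in 10.45% of all. TGANTCA was in 2, another DHRS3 window and the DHRS9 window above, and is in 7.71% of all, while the CRE site TGACGTCA was in 0 and is in 1.85% of all. A match describes letters in a window and is not evidence of binding, and no match says only that these letters are not in that window.

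STRA6, the membrane receptor through which cells take up retinol from its blood carrier, was near the floor of detection in every group. Its counts were 10, 12 and 12 with ATF3 siRNA, 0, 5 and 0 with APOE siRNA, 1, 2 and 0 with CXCL14 siRNA and 3, 5 and 3 with control siRNA. The 3 libraries with ATF3 siRNA were the 3 highest of the 12. Scaled for depth, the summed counts of 34 with ATF3 siRNA against 11 with control siRNA gave a ratio of 2.71 with a 95% counting interval of 1.34 to 5.93, while the ratio with APOE siRNA was 0.422 (0.115 to 1.32) and that with CXCL14 siRNA, from 3 counts, 0.225 (0.0404 to 0.853). In an edgeR fit with no filter, over 30352 genes, none of the 3 changes against the control passed (adjusted p = 0.235, 0.455 and 0.124), whereas STRA6 was higher with ATF3 siRNA than with APOE siRNA (edgeR adjusted p = 0.00546) and than with CXCL14 siRNA (edgeR adjusted p = 0.000299). The ratios for these pairs were 6.42 (2.50 to 21.0) and 12.02 (3.78 to 61.2). STRA6 (ENSG00000137868, chromosome 15, 74179466 to 74212267, minus strand) shares 540 exon bases with CCDC33 on the other strand, which had 4 counts in all.

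**Figure D2:**
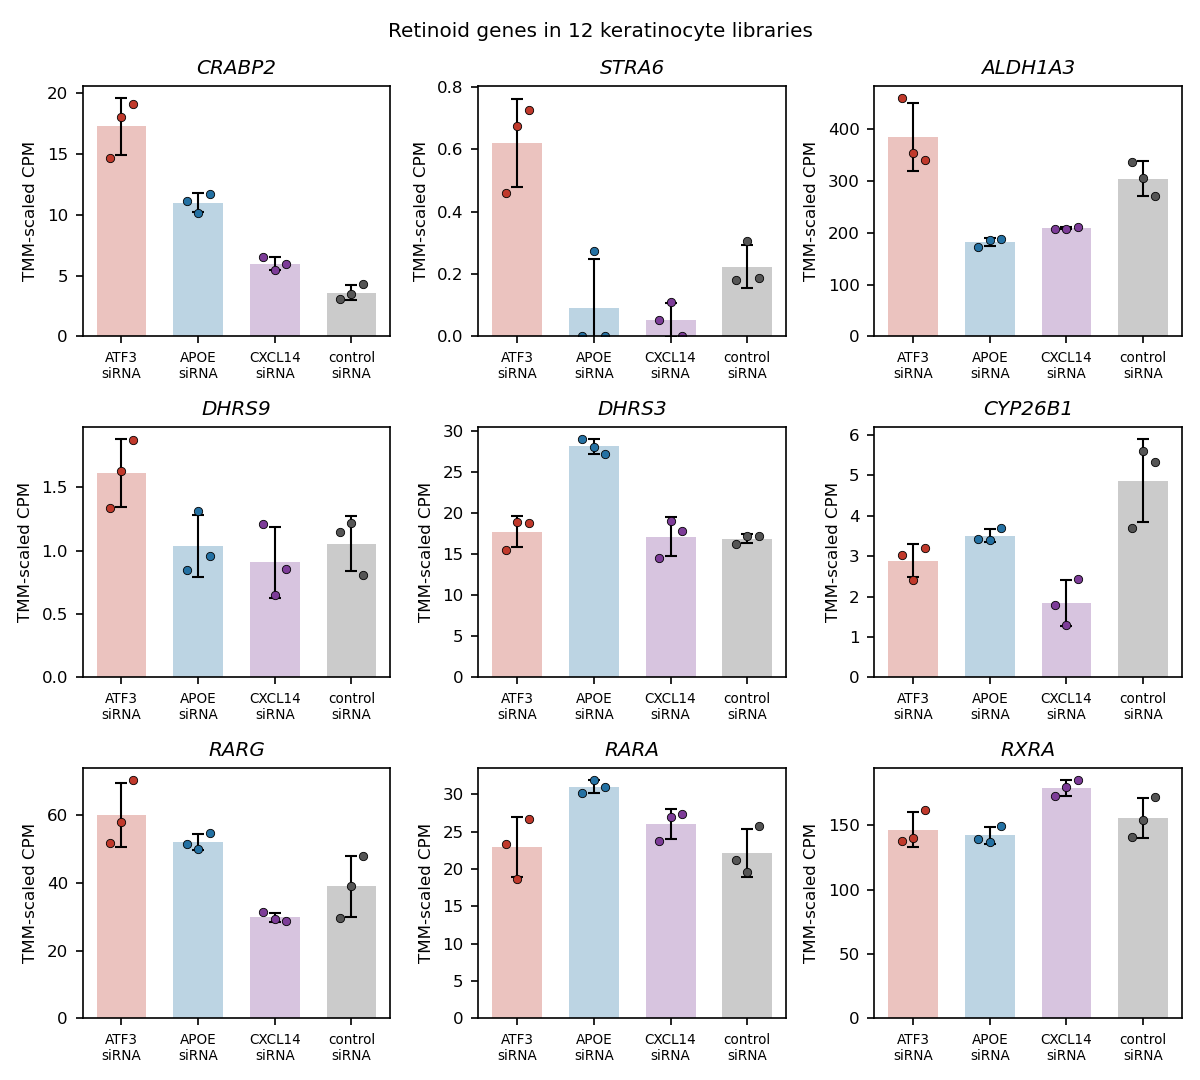
Levels of the 9 retinoid genes in each library, as TMM-scaled CPM on the y axis of each panel; points are libraries, bars the mean of 3 and error bars ± 1 SD, with ATF3 siRNA, APOE siRNA and CXCL14 siRNA to the left of control siRNA. CRABP2 averages 17.3 CPM with ATF3 siRNA and 3.61 CPM with control siRNA, DHRS3 stands out with APOE siRNA at 28.2 CPM, and STRA6 stays under 1 CPM.

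ALDH1A3, the aldehyde dehydrogenase that oxidises retinal to retinoic acid, had the highest FPKM of the 9 genes in every group. In CPM it stood at 461, 354 and 340 CPM with ATF3 siRNA, 173, 185 and 188 CPM with APOE siRNA, 207, 208 and 211 CPM with CXCL14 siRNA and 338, 306 and 271 CPM with control siRNA. Each library with APOE siRNA or CXCL14 siRNA was below each control library, and each library with ATF3 siRNA above, the nearest pair being 340 and 338 CPM. ALDH1A3 fell to 0.597 of its control level with APOE siRNA (-0.74 ± 0.10, edgeR adjusted p = 1.72e-05) and to 0.685 with CXCL14 siRNA (-0.55 ± 0.10, edgeR adjusted p = 0.000213), and both calls held under all 14 alternatives. The rise with ATF3 siRNA was smaller (0.34 ± 0.10, edgeR adjusted p = 0.0253) and was lost without ATF3 siRNA library 1, without control library 2, without control library 3 and in a fit of only these 2 groups (0.18 to 0.42 and adjusted p of 0.000467 to 0.133 over the alternatives). Set against each other, ALDH1A3 was higher with ATF3 siRNA than with APOE siRNA (1.08 ± 0.10, edgeR adjusted p = 4.29e-07) and than with CXCL14 siRNA (0.88 ± 0.10, edgeR adjusted p = 1.56e-06). ALDH1A3 (ENSG00000184254, chromosome 15, 100877714 to 100916626, plus strand) shares 1585 exon bases, 27.46% of its own, with the antisense gene AC015712.2. Whether counting used strand is not known here, so reads there cannot be assigned with certainty. The antisense gene had 1232 counts over the 12 libraries against 58951 for ALDH1A3.

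The other 2 enzymes of this family that form retinoic acid were close to absent: ALDH1A1 had 2, 2, 4 and 3 counts and ALDH1A2 had 16, 19, 10 and 15 counts over the 3 libraries with ATF3 siRNA, APOE siRNA, CXCL14 siRNA and control siRNA. Neither passed the filter.

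DHRS9, a short-chain dehydrogenase that oxidises retinol, was low, at 1.34, 1.63 and 1.87 CPM with ATF3 siRNA, 0.844, 1.31 and 0.957 CPM with APOE siRNA, 1.21, 0.654 and 0.859 CPM with CXCL14 siRNA and 1.15, 1.22 and 0.806 CPM with control siRNA, from 12 to 31 counts per library. The libraries with ATF3 siRNA were all above those of every other group, and the other 3 groups overlapped. The change with ATF3 siRNA of 0.60 ± 0.30 did not pass (edgeR adjusted p = 0.18), nor did those with APOE siRNA (-0.03 ± 0.32, edgeR adjusted p = 0.958) and CXCL14 siRNA (-0.22 ± 0.32, edgeR adjusted p = 0.588). The difference between ATF3 siRNA and CXCL14 siRNA passed at 0.81 ± 0.30 (edgeR adjusted p = 0.0296), but was lost under 7 of 13 alternatives, among them the DESeq2 Wald test, no filter, library size alone, and without library 2 or 3 of either group (adjusted p of 0.0155 to 0.117). DHRS9 (ENSG00000073737) lies on chromosome 2 at 169064789 to 169096167, plus strand.

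DHRS3, which reduces retinal back to retinol and so draws it away from retinoic acid, differed with APOE siRNA alone among the comparisons with the control. Its levels were 15.6, 18.9 and 18.8 CPM with ATF3 siRNA, 29.1, 28.1 and 27.2 CPM with APOE siRNA, 14.5, 19.1 and 17.9 CPM with CXCL14 siRNA and 16.3, 17.2 and 17.2 CPM with control siRNA. The 3 libraries with APOE siRNA were the highest of the 12, and the other 3 groups overlapped. DHRS3 rose 1.67-fold with APOE siRNA (0.74 ± 0.11, edgeR adjusted p = 3.04e-05), whereas the change was 0.07 ± 0.11 with ATF3 siRNA (edgeR adjusted p = 0.703) and 0.02 ± 0.11 with CXCL14 siRNA (edgeR adjusted p = 0.884). The difference itself was tested: DHRS3 was lower with ATF3 siRNA than with APOE siRNA (-0.67 ± 0.10, edgeR adjusted p = 8.93e-05) and higher with APOE siRNA than with CXCL14 siRNA (0.72 ± 0.10, edgeR adjusted p = 2.01e-05). None of these 3 calls changed under the 14 alternatives. DHRS3 (ENSG00000162496) lies on chromosome 1 at 12567910 to 12617731, minus strand.

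CYP26B1, the cytochrome P450 that inactivates retinoic acid, was lower with ATF3 siRNA and CXCL14 siRNA. It stood at 3.04, 2.42 and 3.21 CPM with ATF3 siRNA, 3.43, 3.39 and 3.70 CPM with APOE siRNA, 1.79, 1.31 and 2.44 CPM with CXCL14 siRNA and 3.69, 5.59 and 5.33 CPM with control siRNA. Control library 1, at 3.69 CPM, lay next to the libraries with APOE siRNA and apart from the other 2 controls, so the groups with APOE siRNA and control siRNA overlapped. The libraries with ATF3 siRNA and CXCL14 siRNA lay below every control library. The fall with CXCL14 siRNA was to 0.385 of the control level (-1.38 ± 0.22, edgeR adjusted p = 6.96e-05) and held under all 14 alternatives. The fall with ATF3 siRNA (-0.75 ± 0.21, edgeR adjusted p = 0.0211) was lost without ATF3 siRNA library 2, without control library 2 and without control library 3 (-0.92 to -0.64 and adjusted p of 0.00375 to 0.0948 over the alternatives). With APOE siRNA the change of -0.47 ± 0.21 did not pass (edgeR adjusted p = 0.0805), but did with library size alone and without control library 1 (adjusted p of 0.0278 to 0.255). CYP26B1 was higher with APOE siRNA than with CXCL14 siRNA (0.90 ± 0.23, edgeR adjusted p = 0.00321), and higher with ATF3 siRNA than with CXCL14 siRNA (0.63 ± 0.23, edgeR adjusted p = 0.033), the second lost under 6 of 14 alternatives: library size alone, a fit of these 2 groups only, and without library 1 or 3 of ATF3 siRNA or library 1 or 2 of CXCL14 siRNA. The other members of its family, CYP26A1 and CYP26C1, had at most 4 counts in any group. CYP26B1 (ENSG00000003137) lies on chromosome 2 at 72129238 to 72148038, minus strand.

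RARG, the retinoic acid receptor most associated with epidermis, stood at 51.8, 58.0 and 70.3 CPM with ATF3 siRNA, 51.4, 49.9 and 54.6 CPM with APOE siRNA, 31.3, 29.2 and 28.8 CPM with CXCL14 siRNA and 29.7, 39.0 and 48.0 CPM with control siRNA. The libraries with ATF3 siRNA and APOE siRNA lay above all control libraries, and the control libraries spread from 29.7 to 48.0 CPM. RARG rose 1.54-fold with ATF3 siRNA (0.62 ± 0.13, edgeR adjusted p = 0.0038), a call that held under all 14 alternatives. It rose with APOE siRNA by 0.42 ± 0.13 (edgeR adjusted p = 0.0186), which was lost without APOE siRNA library 3 and without control library 1 (0.26 to 0.58, adjusted p of 0.000104 to 0.0993). It fell with CXCL14 siRNA (-0.39 ± 0.14, edgeR adjusted p = 0.025), but the libraries overlapped with the control, and the call was lost with library size alone and without library 2 or 3 of either group (-0.55 to -0.21, adjusted p of 7.89e-05 to 0.186). Between siRNAs the differences were clear of that spread: RARG was higher with ATF3 siRNA than with CXCL14 siRNA (1.01 ± 0.13, edgeR adjusted p = 9.48e-06) and higher with APOE siRNA than with CXCL14 siRNA (0.80 ± 0.14, edgeR adjusted p = 9.39e-05), while ATF3 siRNA over APOE siRNA gave 0.21 (edgeR adjusted p = 0.235). RARG (ENSG00000172819) lies on chromosome 12 at 53210567 to 53232980, minus strand.

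RARA, the retinoic acid receptor of broad tissue distribution, was highest with APOE siRNA. Its levels were 23.4, 18.7 and 26.7 CPM with ATF3 siRNA, 30.2, 31.9 and 30.9 CPM with APOE siRNA, 23.8, 27.0 and 27.3 CPM with CXCL14 siRNA and 21.2, 19.6 and 25.7 CPM with control siRNA. The libraries with APOE siRNA lay above all others, and the other 3 groups overlapped. RARA rose 1.40-fold with APOE siRNA (0.49 ± 0.12, edgeR adjusted p = 0.00368), under all 14 alternatives. It did not pass with ATF3 siRNA (0.05 ± 0.12, edgeR adjusted p = 0.82) or CXCL14 siRNA (0.23 ± 0.12, edgeR adjusted p = 0.113), the second passing with library size alone and without control library 3 (adjusted p of 0.0257 to 0.378). RARA was lower with ATF3 siRNA than with APOE siRNA (-0.44 ± 0.12, edgeR adjusted p = 0.00816). APOE siRNA over CXCL14 siRNA gave 0.25 ± 0.12 (edgeR adjusted p = 0.0801). With the replicate number as a block, shared by the libraries of all 4 groups, it gave 0.26 (edgeR adjusted p = 0.0284). It also passed in a fit of these 2 groups only (adjusted p of 0.0179 to 0.335 over the alternatives). RARA (ENSG00000131759, chromosome 17, 40309192 to 40357643, plus strand) shares 556 exon bases with RARA-AS1, which had 11 counts in all.

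RXRA is a receptor of the RXR family, the partners with which RARs bind DNA. It stood at 138, 140 and 162 CPM with ATF3 siRNA, 139, 137 and 150 CPM with APOE siRNA, 173, 180 and 185 CPM with CXCL14 siRNA and 140, 154 and 172 CPM with control siRNA. The libraries with CXCL14 siRNA were the highest, the nearest control library being 172 CPM against 173 CPM, and the other 3 groups overlapped. The rise with CXCL14 siRNA of 0.20 ± 0.08 (edgeR adjusted p = 0.0385) was lost with no filter, without CXCL14 siRNA library 2 or 3 and without control library 1 or 2 (0.13 to 0.28, adjusted p of 0.00282 to 0.194). The changes with ATF3 siRNA (-0.09 ± 0.08, edgeR adjusted p = 0.497) and APOE siRNA (-0.13 ± 0.08, edgeR adjusted p = 0.204) did not pass, the second passing with library size alone (adjusted p of 0.0419 to 0.544). RXRA was lower with ATF3 siRNA than with CXCL14 siRNA (-0.29 ± 0.08, edgeR adjusted p = 0.00572) and lower with APOE siRNA than with CXCL14 siRNA (-0.33 ± 0.08, edgeR adjusted p = 0.00195). RXRA (ENSG00000186350) lies on chromosome 9 at 134317098 to 134440585, plus strand.

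Between the siRNAs, 4 of the 8 tested retinoid genes were called for ATF3 siRNA against APOE siRNA, 2 higher and 2 lower, where 38.2% of all tested genes were called, 20.3% higher and 17.9% lower. For ATF3 siRNA against CXCL14 siRNA 6 were called, 5 higher and 1 lower, where 53.7% of all were called, 28.4% higher and 25.3% lower. For APOE siRNA against CXCL14 siRNA 5 were called, 4 higher and 1 lower, where 55.5% of all were called, 28.9% higher and 26.6% lower. The median differences of the 8 genes were 0.13, 0.72 and 0.48 on the log2 scale, against -0.0069, -0.0014 and 0.0082 over all tested genes. With library size alone the medians over all genes for ATF3 siRNA and for APOE siRNA over CXCL14 siRNA moved to -0.105 and -0.114, and 41.5% and 39.6% of calls were higher, against 52.9% and 52.0% with TMM. Libraries did not overlap in 7, 6 and 7 of the 9 genes, where the share over all tested genes was 46.9%, 58.4% and 61.8%. The counts for ATF3 siRNA against APOE siRNA and against CXCL14 siRNA include STRA6, which is not among the tested genes of that share. The remaining differences did not pass: ATF3 siRNA over APOE siRNA gave 0.04 for RXRA (edgeR adjusted p = 0.699), 0.62 ± 0.30 for DHRS9 (0.112) and -0.28 for CYP26B1 (0.349). ATF3 siRNA over CXCL14 siRNA gave -0.18 for RARA (edgeR adjusted p = 0.21, from 0.0398 to 0.72, passing with library size alone and without ATF3 siRNA library 3) and 0.05 for DHRS3 (0.728). APOE siRNA over CXCL14 siRNA gave -0.20 for ALDH1A3 (edgeR adjusted p = 0.103, from 0.00703 to 0.262, passing with library size alone, no filter and a fit of these 2 groups) and 0.19 for DHRS9 (0.632).

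Levels per gene length, which allow genes to be compared with each other, are the deposited FPKM. With ATF3 siRNA the order was ALDH1A3 (65.5 ± 11.3 FPKM, SD, n = 3), CRABP2 (15.4 ± 2.06), RXRA (12.97 ± 1.19), RARG (11.5 ± 1.80), DHRS3, RARA, CYP26B1, DHRS9 and STRA6. There the ranges over the libraries overlapped for CRABP2 and RXRA, RXRA and RARG, DHRS3 and RARA, and CYP26B1 and DHRS9. Within each library with ATF3 siRNA, the first gene of each of these pairs was the higher. With APOE siRNA the order was ALDH1A3 (30.8 ± 1.27 FPKM), RXRA (12.5 ± 0.582), RARG, CRABP2 (9.79 FPKM), DHRS3, RARA, CYP26B1, DHRS9 and STRA6, with RARG and CRABP2, and CRABP2 and DHRS3, overlapping. With CXCL14 siRNA ALDH1A3 (35.8 ± 0.377 FPKM) and RXRA (15.97 ± 0.539) led, RARG, DHRS3, RARA and CRABP2 stood between 5.38 and 5.74 FPKM with each overlapping its neighbour, and CYP26B1 overlapped DHRS9. With control siRNA the order was ALDH1A3 (52.2 ± 5.92 FPKM), RXRA (13.8 ± 1.34), RARG (7.48 ± 1.72), DHRS3 (5.49 ± 0.168), RARA (4.62 ± 0.645), CRABP2 (3.24 ± 0.532), CYP26B1 (0.958 ± 0.202), DHRS9 (0.278 ± 0.0589) and STRA6 (0.0287 ± 0.00899), where neighbours overlapped only for DHRS3 and RARA. CRABP2 thus ranked 2nd of 9 with ATF3 siRNA, 4th with APOE siRNA and 6th with CXCL14 siRNA and control siRNA, while ALDH1A3 was first and STRA6 last in every group.

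**Figure D3:**
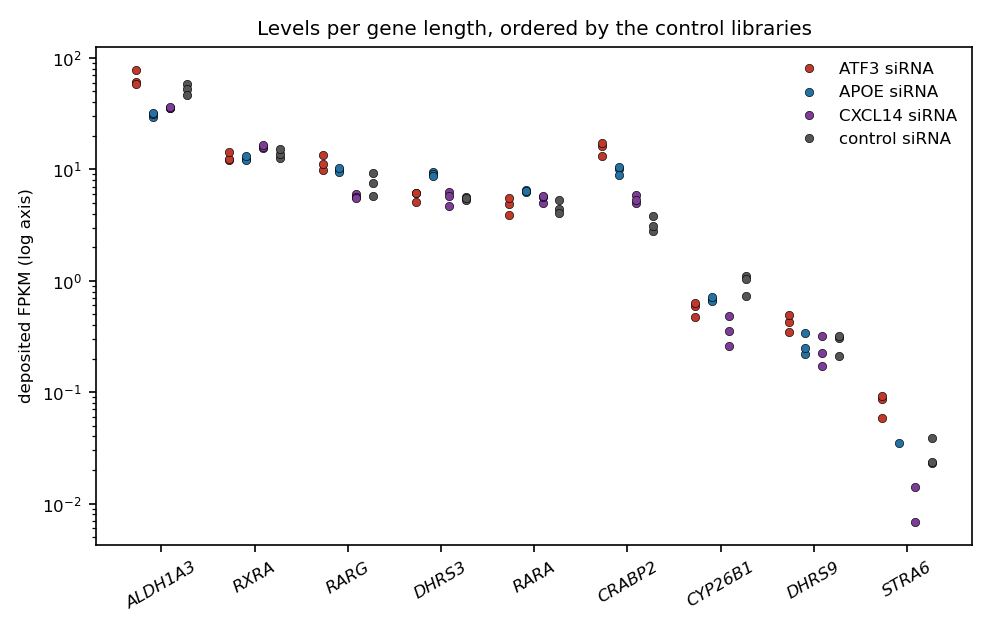
Deposited FPKM of the 9 retinoid genes on a log axis, 1 point per library, with genes ordered by their control mean; the 3 libraries in which STRA6 is at 0 are not drawn. ALDH1A3 lies highest and STRA6 lowest in each group, and CRABP2 spans from about the level of RXRA with ATF3 siRNA (15.4 FPKM) to below RARA with control siRNA (3.24 FPKM).

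Among the RAR transcripts, RARG took 70.6 ± 3.56% of the summed FPKM with ATF3 siRNA, 60.6 ± 1.58% with APOE siRNA, 51.3 ± 2.97% with CXCL14 siRNA and 61.5 ± 4.38% with control siRNA (SD, n = 3 each). RARA made up nearly all of the rest, and RARB, a receptor whose gene is itself a well known retinoic acid target, took at most 0.358% in any library. The ratio of RARG to RARA was 2.45 ± 0.412 with ATF3 siRNA, 1.55 ± 0.0951 with APOE siRNA, 1.06 ± 0.131 with CXCL14 siRNA and 1.62 ± 0.284 with control siRNA. The ratios with ATF3 siRNA were all above, and those with CXCL14 siRNA all below, the control. RXRA took 48.9%, 52.1%, 46.8% and 52.0% of the RXR transcripts in the same order of groups, nearly all of the rest being RXRB.

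ALDH1A3 and CYP26B1 stand at the making and the breaking of retinoic acid, and their ratio within a library does not depend on the scaling between libraries. ALDH1A3 over CYP26B1 in FPKM was 132, 127 and 92.2 with ATF3 siRNA, 43.8, 47.4 and 44.1 with APOE siRNA, 101, 138 and 75.2 with CXCL14 siRNA and 79.6, 47.6 and 44.2 with control siRNA. The libraries with ATF3 siRNA lay above the control, while those with APOE siRNA and CXCL14 siRNA overlapped with it. Both ratios were chosen after the values of these genes were known and are given without a test, and they compare transcripts, not enzyme activity or retinoic acid, which were not measured.

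**Figure D4:**
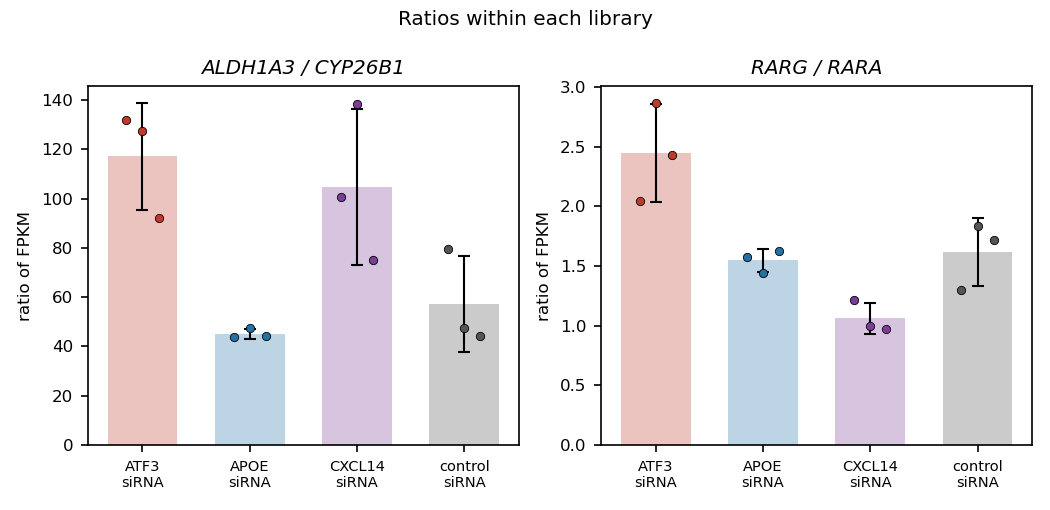
Ratios of FPKM within each library, ALDH1A3 over CYP26B1 (left) and RARG over RARA (right); points are libraries, bars the mean of 3 and error bars ± 1 SD, with the 3 targeting siRNAs left of control siRNA. The ALDH1A3 ratio averages 117 with ATF3 siRNA, 45.1 with APOE siRNA, 105 with CXCL14 siRNA and 57.1 with control siRNA. The RARG ratio averages 2.45 with ATF3 siRNA, 1.55 with APOE siRNA, 1.06 with CXCL14 siRNA and 1.62 with control siRNA.

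The wider retinoid pathway was described with lists of genes other than the 9, whose medians stand beside 0.0032, 0.012 and 0.013 over all tested genes with ATF3, APOE and CXCL14 siRNA. Nothing particular to a list is read from its count. Of 15 genes of uptake, binding and storage 7 were tested: 3 rose and 0 fell with ATF3 siRNA (median 0.29), 3 rose and 0 fell with APOE siRNA (0.04), and 2 rose and 2 fell with CXCL14 siRNA (0.07), beside 20.4%, 44.8% and 55.8% of all tested genes called. FABP5, a fatty acid carrier that can also carry retinoic acid, rose with APOE siRNA to 98.03 ± 6.43 CPM against 47.7 ± 3.21 CPM with control siRNA (1.04 ± 0.08, edgeR adjusted p = 5.76e-08), rose by 0.33 ± 0.08 with ATF3 siRNA (0.0102, lost without ATF3 siRNA library 2 and without control library 1) and fell with CXCL14 siRNA (-0.29 ± 0.08, 0.00729). SCARB1, a lipoprotein receptor that also takes up carotenoids, rose with ATF3 siRNA and APOE siRNA (0.31 and 0.61) and fell with CXCL14 siRNA (-0.47), and LIPE, a lipase that also acts on retinyl esters, rose with CXCL14 siRNA (1.28 ± 0.10, edgeR adjusted p = 1.46e-08). CRABP1, the sister of CRABP2, and the retinol carrier RBP4 had 0 counts in all 12 libraries.

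A list of 23 enzymes was set around the oxidation and reduction of retinol and retinal, though not all of them are established in these steps. Of these, 11 were tested: 2 rose and 1 fell with ATF3 siRNA (median 0.12), 6 rose and 3 fell with APOE siRNA (0.28), and 6 rose and 2 fell with CXCL14 siRNA (0.49), beside the same 20.4%, 44.8% and 55.8%. RDH10, which oxidises retinol to retinal, rose with APOE siRNA to 43.3 ± 2.02 CPM against 25.5 ± 2.06 CPM with control siRNA (0.76 ± 0.12, edgeR adjusted p = 5.68e-05). SDR16C5, another retinol dehydrogenase, fell with APOE siRNA to 0.835 CPM against 5.37 CPM with control siRNA (-2.68 ± 0.26, edgeR adjusted p = 4.4e-07) and fell with CXCL14 siRNA (-1.84 ± 0.23, 4.3e-06), whereas its fall with ATF3 siRNA (-0.68 ± 0.21, 0.0313) was lost under 6 of 13 alternatives, among them each control library left out in turn. Of the aldo-keto reductases, which reduce retinal, AKR1B10 rose with APOE siRNA (2.57 ± 0.33, edgeR adjusted p = 8.88e-06) and AKR1B1 rose with CXCL14 siRNA (0.82 ± 0.06, 9.92e-09). DHRS2, a short-chain dehydrogenase, fell with APOE siRNA to 4.40 ± 0.346 CPM against 19.2 ± 5.01 CPM with control siRNA (-2.12 ± 0.22, edgeR adjusted p = 8.18e-07) and rose with CXCL14 siRNA (1.00 ± 0.18, 0.000151). RDH13 rose with ATF3 siRNA (0.51 ± 0.09, edgeR adjusted p = 0.000749), APOE siRNA (0.34 ± 0.09, 0.0056) and CXCL14 siRNA (0.76 ± 0.09, 1.84e-06). AKR1B10 and FABP5 have near-identical copies elsewhere in the genome, so their counts are uncertain.

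A list of 5 other genes of cytochrome P450 metabolism, not all of them specific to the breakdown of retinoic acid, had 3 tested. Of these, 1 rose and 1 fell with ATF3 siRNA (median 0.12), 2 rose and 1 fell with APOE siRNA (0.34), and 1 rose and 0 fell with CXCL14 siRNA (-0.13), beside 20.4%, 44.8% and 55.8% of all tested genes called. CYP1B1, a cytochrome P450 with retinoids among its substrates, rose with ATF3 siRNA to 22.7 ± 3.62 CPM and with APOE siRNA to 33.1 ± 2.32 CPM, against 7.12 ± 1.07 CPM with control siRNA (1.67 ± 0.13 and 2.21 ± 0.13, edgeR adjusted p = 4.09e-07 and 2.09e-09), and rose by 0.50 ± 0.14 with CXCL14 siRNA (0.00561). CYP2S1, a cytochrome P450 of skin that also metabolises retinoic acid, fell with ATF3 siRNA (-0.83 ± 0.11, edgeR adjusted p = 0.000109) and with APOE siRNA (-2.27 ± 0.13, 1.61e-09).

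Of 17 further receptors, partners and coregulators 14 were tested, and 0 rose and 1 fell with ATF3 siRNA (median -0.10), 2 rose and 1 fell with APOE siRNA (-0.0029), and 3 rose and 7 fell with CXCL14 siRNA (-0.20). Of all tested genes 20.4%, 44.8% and 55.8% were called. With CXCL14 siRNA the coactivator NCOA3 fell to 73.4 ± 10.4 CPM against 181 ± 14.9 CPM with control siRNA (-1.30 ± 0.10, edgeR adjusted p = 1.72e-08), the corepressor NRIP1 fell (-1.27 ± 0.08, 2.49e-09), the receptor PPARD fell (-0.72 ± 0.07, 1.5e-07) and RXRB rose (0.51 ± 0.06, 2.77e-06). With APOE siRNA the vitamin D receptor VDR, another partner of RXR, fell (-0.38 ± 0.06, edgeR adjusted p = 0.000149). The calls of NCOA2 and NCOA3 with APOE siRNA and of NRIP1 with ATF3 siRNA were each lost under 4 to 6 of 14 alternatives.

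Of 22 names of genes known to respond to retinoic acid 15 were tested, and 5 rose and 4 fell with ATF3 siRNA (median 0.16), 5 rose and 8 fell with APOE siRNA (-0.34), and 4 rose and 5 fell with CXCL14 siRNA (0.08), where 20.4%, 44.8% and 55.8% of all tested genes were called. Over the 14 alternatives 3 to 6 rose and 3 to 4 fell with ATF3 siRNA. These ranges were 4 to 5 and 6 to 8 with APOE siRNA, and 4 to 5 and 5 to 6 with CXCL14 siRNA. The mucosal keratins KRT13 and KRT4, which retinoids are known to raise in epidermis, rose with ATF3 siRNA (1.95 ± 0.12 and 3.22 ± 0.48, edgeR adjusted p = 3.26e-08 and 0.000226). KRT13 averaged 23.9 ± 0.353 CPM with ATF3 siRNA, against 6.17 ± 0.390 CPM with control siRNA. KRT13 and KRT4 also rose with APOE siRNA (0.86 ± 0.13 and 2.51 ± 0.51, edgeR adjusted p = 3.68e-05 and 0.0008). With CXCL14 siRNA neither passed, at 0.08 ± 0.13 for KRT13 (edgeR adjusted p = 0.633) and 0.15 for KRT4 (0.865). KRT4 does not pass the stricter filter on counts, and its change with ATF3 siRNA ran from 2.90 to 3.63 over 13 alternatives. HAS3, a hyaluronan synthase, fell with all 3 targeting siRNAs, to 222 ± 10.7, 162 ± 6.66 and 172 ± 6.87 CPM with ATF3, APOE and CXCL14 siRNA, against 330.0 ± 3.80 CPM with control siRNA. GPRC5A, a membrane receptor named for its induction by retinoic acid, averaged 131 ± 10.4, 90.2 ± 7.64 and 334 ± 29.5 CPM with ATF3, APOE and CXCL14 siRNA, against 175 ± 5.09 CPM with control siRNA. It fell with ATF3 siRNA (-0.42 ± 0.08, edgeR adjusted p = 0.00153) and APOE siRNA (-0.96 ± 0.08, 1.14e-07) and rose with CXCL14 siRNA (0.93 ± 0.08, 5.16e-08). BTG2, an antiproliferative gene, rose with APOE siRNA (0.59 ± 0.07, edgeR adjusted p = 2.27e-06). TGM2, tissue transglutaminase, rose with ATF3 siRNA (1.68 ± 0.17) and CXCL14 siRNA (1.51 ± 0.17). Its fall with APOE siRNA (-0.58 ± 0.20, edgeR adjusted p = 0.0282) was lost under 5 of 14 alternatives, among them limma-voom, without APOE siRNA library 3 and without control library 2 or 3. HBEGF, a ligand of the EGF receptor, fell with CXCL14 siRNA (-1.67 ± 0.09, edgeR adjusted p = 4.1e-10).

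Of 19 names of epidermal differentiation genes that retinoic acid is known to lower 13 were tested. With ATF3 siRNA 10 rose and 0 fell (median 1.77), with APOE siRNA 11 rose and 0 fell (2.05), and with CXCL14 siRNA 4 rose and 4 fell (0.23, from -0.475 to 0.897 over the alternatives). Of all tested genes 11.2%, 22.3% and 27.4% were called higher and 9.14%, 22.5% and 28.4% lower. IVL (involucrin, a precursor of the cornified envelope) averaged 85.3 ± 10.9 CPM with ATF3 siRNA, 68.4 ± 8.06 CPM with APOE siRNA and 11.8 ± 0.788 CPM with CXCL14 siRNA, against 24.98 ± 3.12 CPM with control siRNA. These changes were 1.77 ± 0.11, 1.45 ± 0.11 and -1.08 ± 0.12 (edgeR adjusted p = 4.03e-08, 4.25e-08 and 1.58e-06). SBSN, a protein of the suprabasal layers, rose with all 3 siRNAs, and the cornified envelope genes SPRR2A and SPRR2D, whose counts are uncertain among near-identical copies, fell with CXCL14 siRNA (-1.58 ± 0.15 and -1.29 ± 0.13).  These lists were drawn up with earlier results of the same data known, so their counts are descriptions.

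**Figure D5:**
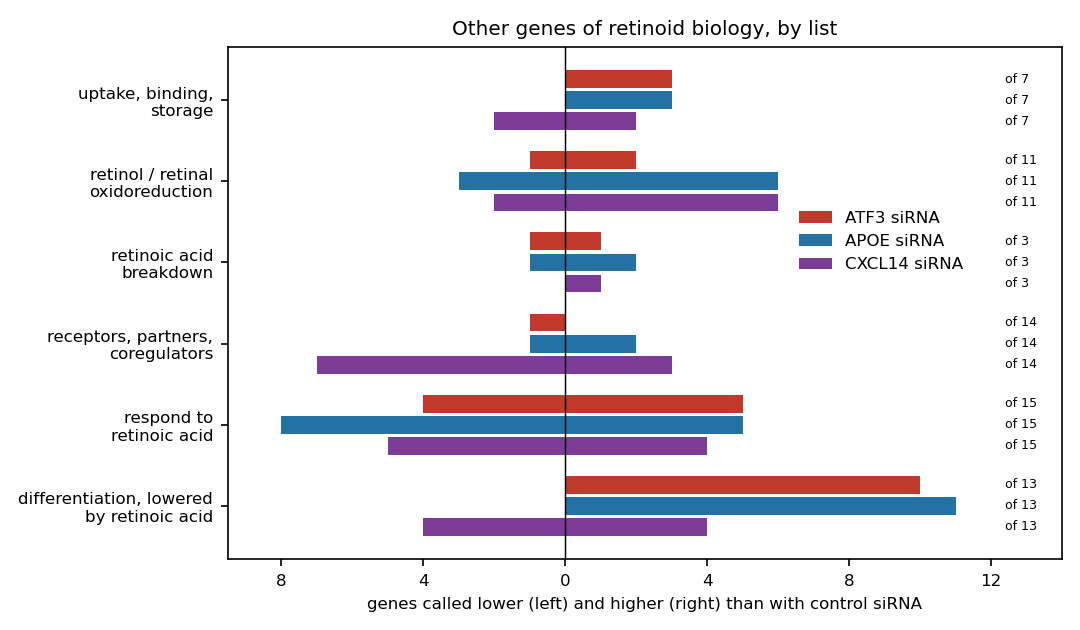
Number of genes in each of 6 lists called lower (bars to the left of 0) and higher (bars to the right) with ATF3 siRNA, APOE siRNA and CXCL14 siRNA against control siRNA; the number at the right is how many genes of the list were tested. In the list of differentiation genes 10, 11 and 4 of 13 are called higher and 0, 0 and 4 lower. The list labelled retinoic acid breakdown holds genes not all specific to it.

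The genes whose pattern over the 12 libraries was nearest to that of a retinoid gene were found by the root mean square (RMS) difference of log2 CPM, each gene centred on its own mean, with protein-coding candidates averaging 5 CPM or more. For CRABP2 these included ASS1 (RMS 0.251), an enzyme of arginine synthesis, and SAA1 (0.315), an acute phase protein with a close copy. The median over 10159 candidates was 0.894 and CRABP2 itself varied by 0.859 about its mean. ASS1 averaged 62.5 ± 4.32, 48.1 ± 3.74, 31.9 ± 0.206 and 18.3 ± 1.57 CPM with ATF3 siRNA, APOE siRNA, CXCL14 siRNA and control siRNA. That is the order of groups of CRABP2, which the choice by nearness makes likely. For ALDH1A3 they were KIF21B (0.135), a kinesin motor, FGFBP1 (0.139), a carrier of fibroblast growth factors, and OSBPL11 (0.147), an oxysterol-binding protein relative, against a median of 0.499. For RARG they were LENG9 (0.123), EVPL (0.142), a cornified envelope protein, and UBE2L6 (0.144), a conjugating enzyme of ISG15, against a median of 0.480. For DHRS9 they included KDELC2 (0.231) and NAMPT (0.255), against a median of 0.457, and another gene among the nearest, with a near-identical copy in the genome, is not given. DHRS9 itself varied by 0.387 about its mean, from 12 to 31 counts per library, so counting error limits this nearness. The 12 libraries share 4 groups and their depths, so nearness describes these groups only.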

How the data were processed

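Bulk RNA-seq counts and FPKM of 12 libraries in 4 groups were used, and 0 columns of per-sample values were left unmapped. The authors deposited raw counts per gene and FPKM per gene and library. The submitters' processing notes name the aligner HISAT2 2.0.5, the counter featureCounts 1.5.0-p3 and the build hg38. The annotation and strand setting are not given in the sources used here, and all 58735 gene IDs matched GENCODE 29, 99.98% with equal coordinates. The deposited FPKM equal the counts per kilobase times a constant per library that follows the DESeq2 size factors. The deposited counts, 16225691 to 22246755 per library, were filtered with filterByExpr (14920 genes, 99.9% of counts), scaled by TMM and fitted with edgeR 4.0.16 (R 4.3.3) by quasi-likelihood, with all 12 libraries and 1 term per group, for 6 comparisons. Benjamini-Hochberg adjustment ran over all tested genes of a comparison. The procedure was tested on simulated data. Within groups, Pearson's r of log2 CPM over genes (not independent replicates) was 0.989 to 0.992, and chi-square per degree of freedom was 4.32 to 16.4, so no library repeats another. For 3 libraries against 3, an exact permutation test of a single value cannot go below p = 0.1. Same-numbered libraries deviated together, with correlations over 0.1 for every number, only between APOE siRNA and CXCL14 siRNA (0.225, 0.104 and 0.234). Each library with ATF3 siRNA also correlated most with its own number among the control libraries (0.146, 0.0214 and 0.23). The same held among the libraries with APOE siRNA (0.206, 0.0182 and 0.154). The data and not the labels show these correlations.

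Alternatives were library size alone or DESeq2 size factors for scaling, limma-voom (limma 3.58.1) or DESeq2's Wald test (1.42.0) for testing, filtering left out or tightened to a mean of 50 counts with 1 CPM reached by 3 libraries, the replicate number as a block, a fit of only the 2 groups compared, and each library left out in turn. Ratios of summed counts have 95% counting intervals. The 9 genes and the gene lists were chosen with earlier results of these data known. Named are all 9 genes, the siRNA targets, from each list at most 4 called genes per comparison with the smallest adjusted p, and the 3 nearest genes by pattern for 4 of the 9 genes. The rule allows these names and does not require each, and a few items, none of them among the 9 genes, are not reported here. Exceptions, named after their values were seen, are the marker genes and genes near 0 counts (ALDH1A1, ALDH1A2, CRABP1, CYP26A1, CYP26C1, RARB and RBP4) and further group values of a gene named for another group.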

Additional observations from a re-analysis of the deposited data

How the results depend on the processing

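Over 13 or 14 alternatives for each of the 8 tested genes in each comparison, the direction reversed for none of the called changes, 32 values lost their call and 12 gained one, and 622 stayed on the same side of the threshold. The calls that changed are given beside their genes in the report, and the cause was not tested. DHRS9 has no value under the stricter filter, which removes it. The number of genes called for ATF3 siRNA against control siRNA, 3041, ran from 1916 (without control library 1) to 2729 as each library was left out, and from 2473 to 4138 under the other alternatives. In the other comparisons no alternative moved the count by more than 1.5 times. With the replicate block the counts were 4138, 7436 and 8970 for ATF3, APOE and CXCL14 siRNA against control siRNA, 6618 for ATF3 siRNA against APOE siRNA, 8712 for ATF3 siRNA against CXCL14 siRNA and 8949 for APOE siRNA against CXCL14 siRNA. Outside that last comparison, at least 1 same-numbered correlation was under 0.1 (for ATF3 siRNA against control siRNA 0.146, 0.0214 and 0.23). For ATF3 siRNA against control siRNA and against APOE siRNA, the same-numbered correlation was still the highest for every number. Whether the numbers pair those libraries is not known, and the block is given only as an alternative. The order of levels per length was the same for 9 of 9 genes in each group with CPM per kilobase in place of FPKM. In the lists, differentiation genes called higher were 8 to 10 with ATF3 siRNA and 10 to 11 with APOE siRNA wherever 12 or 13 were tested, and 7 of the 8 tested in both under the stricter filter, with 0 called lower under any alternative. Depth limits STRA6 and DHRS9, with at most 12 and 31 counts per library.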
